A study of Mus musculus with 16 samples.

Results

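The lipid-associated macrophage genes described here are 10 genes chosen by their symbols: Trem2, Tyrobp, Gpnmb, Spp1, Cd9, Fabp5, Lpl, Lgals3, Apoe and Plin2. All 10 were listed among the 26931 genes of the expression table, and all 10 passed the filter on low values (1 FPKM or more in at least 4 libraries), as did 11034 genes in all. FPKM is the number of fragments for a fixed length of gene and a fixed size of library, so levels of different genes can be set side by side.

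RNA-seq was made from macrophages that had infiltrated liver cancer in mice labelled WT, collected with magnets by F4/80, a surface protein of mouse macrophages encoded by Adgre1. Of the 16 samples, 4 came from mice given antibodies to both PD-1 and CX3CR1, 4 from mice given anti-PD-1 alone, 4 from mice given anti-CX3CR1 alone, and 4 from mice given the control antibody IgG. The table had 15 value columns, named TAM_1 and TAM_3 to TAM_16, whose names carry no treatment, so the libraries are described without treatments and no treatment comparison is made. The strain, the age of the mice, how the tumours arose, and the number of mice behind each sample are not given in the labels.

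Macrophages that take up much lipid, in fatty tissue, plaques and tumours, switch on a recurrent set of genes for lipid sensing, transport and storage. TREM2, a surface receptor for lipids and lipoproteins, has no signalling motif of its own and passes its signal through the adaptor TYROBP (DAP12), which recruits the kinase SYK. Apolipoprotein E, a lipid carrier, is among the ligands of TREM2, and loss of Trem2 in mice blunts the lipid-associated state of macrophages in adipose tissue.

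Promoter windows, from 250 bases before to 50 bases after an annotated start, matched 7 of the 10 genes in RefSeq sequence of GRCm38.p6, the assembly that mm10 names. Tyrobp, Fabp5 and Lpl were not matched. The windows of Trem2, Spp1 and Plin2 (the first of its annotated starts for Spp1) are shown because these genes had the same 7 lowest libraries, and that of Gpnmb because it did not follow them; all are written 5′ to 3′ on the gene's strand, with motif matches in capitals. They lie at chr17:48346151-48346450 (plus strand), chr5:104434861-104435160 (plus strand), chr4:86670010-86670309 (minus strand) and chr6:49036268-49036567 (plus strand).
Trem2: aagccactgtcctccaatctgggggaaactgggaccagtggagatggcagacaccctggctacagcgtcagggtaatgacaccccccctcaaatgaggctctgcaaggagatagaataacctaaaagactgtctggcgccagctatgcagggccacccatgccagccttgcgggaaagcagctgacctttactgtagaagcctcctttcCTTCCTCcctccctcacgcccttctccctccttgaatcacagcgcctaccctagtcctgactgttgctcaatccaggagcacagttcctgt
Spp1: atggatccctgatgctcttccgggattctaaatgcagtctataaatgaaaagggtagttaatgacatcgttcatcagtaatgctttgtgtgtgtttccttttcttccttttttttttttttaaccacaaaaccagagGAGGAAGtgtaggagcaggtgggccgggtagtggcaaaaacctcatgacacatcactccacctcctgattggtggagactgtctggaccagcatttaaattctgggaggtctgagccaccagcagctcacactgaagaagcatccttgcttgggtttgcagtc
Plin2: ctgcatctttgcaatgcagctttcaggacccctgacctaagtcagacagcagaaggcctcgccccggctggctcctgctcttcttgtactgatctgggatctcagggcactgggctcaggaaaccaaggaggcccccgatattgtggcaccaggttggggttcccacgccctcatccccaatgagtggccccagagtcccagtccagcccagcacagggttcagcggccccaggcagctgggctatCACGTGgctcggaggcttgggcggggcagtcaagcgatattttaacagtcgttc
Gpnmb: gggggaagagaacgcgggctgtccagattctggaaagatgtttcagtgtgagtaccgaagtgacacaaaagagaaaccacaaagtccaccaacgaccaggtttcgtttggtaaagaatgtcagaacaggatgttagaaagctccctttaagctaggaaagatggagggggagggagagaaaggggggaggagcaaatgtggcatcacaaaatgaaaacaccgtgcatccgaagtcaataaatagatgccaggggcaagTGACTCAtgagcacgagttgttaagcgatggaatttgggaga

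The motifs were searched on both strands, and none of their matches overlap. TGACTCA, the site of AP-1 factors, stood at bases 259 to 265 of the Gpnmb window, and was found in 5.20% of all 32851 promoter windows. GAGGAAG, a core bound by the macrophage factor PU.1, stood at bases 138 to 144 of the Spp1 window and, on the other strand, at bases 210 to 216 of the Trem2 window, against 13.6% of all windows. CACGTG, an E-box read by MiT/TFE factors among others, stood at bases 247 to 252 of the Plin2 window, against 7.15% of all windows. The spaced direct repeat bound by PPAR with RXR was found in none of the 7 matched genes and in 0.0396% of all windows. Of the motifs searched, the Trem2 and Spp1 windows thus share 1, found in 2 of the 7 matched genes. The Plin2 and Gpnmb windows share none with them or with each other. The count of 2 is by gene, while the 13.6% is a share of windows, and Spp1 and Apoe had more than 1 window. With so few genes, the count cannot be set apart from that share. The matched windows of Lgals3, Cd9 and Apoe held none of the motifs and are not shown, though Lgals3 had the same 7 lowest libraries as Trem2. The Lgals3 window lies at an annotated start of 47373860, away from the gene start of 47367751 given below. The Apoe windows lie at 19699188, which is the gene start, and at 19698621 and 19698398 within the gene. The absence of motifs holds for these windows only.

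Whole reads recovered from the steps of the FPKM values, with a gene's smallest step taken as 1 read, put the libraries at 35613173 to 38523528 reads. The libraries were clustered by their profile over all tested genes other than the 10, with the number of sets fixed at 4. The sets were TAM_1, TAM_3 and TAM_4, then TAM_5 to TAM_8, TAM_9 to TAM_12, and TAM_13 to TAM_16. The root mean square log2 difference was 0.129 to 0.209 within sets and 0.220 to 0.446 between them, so these ranges did not overlap but lay close. Because the sets are separate and hold at most 4 libraries, no correlation coefficient over the libraries is given. Genes are compared instead by the number of the 105 pairs of libraries that they order the same way. This is a description with no p, since the pairs share libraries, and it too compares ranks over the pooled libraries. Of the 105 pairs, 84 join libraries of different sets and 21 lie within a set. Genes that rank the sets alike can therefore reach a high count with little agreement within sets. Markers of macrophages were high in every library: Adgre1 lay between 67.4 and 88.4 FPKM, and Csf1r, the receptor for the growth factor CSF1, between 171 and 221 FPKM. In such bulk samples, fewer cells of a type and less RNA per cell cannot be told apart.

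The 10 genes were strongly expressed and together took 0.978% (TAM_5) to 1.23% (TAM_11) of each library's summed FPKM. Apoe had the highest level, with a median of 2282 FPKM, ahead of Tyrobp at 915, Lgals3 at 740, Spp1 at 720, Fabp5 at 314, Plin2 at 219, Cd9 at 198, Trem2 at 91.3, Gpnmb at 53.1 and Lpl at 38.6 FPKM. Most neighbours in this order kept it in 15 of 15 libraries. The exceptions were Lgals3, above Spp1 in 12 of 15, Plin2, above Cd9 in 10 of 15, and Gpnmb, above Lpl in 13 of 15. Those 3 pairs of neighbours do not differ beyond their spread over libraries.

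**Figure D1:**
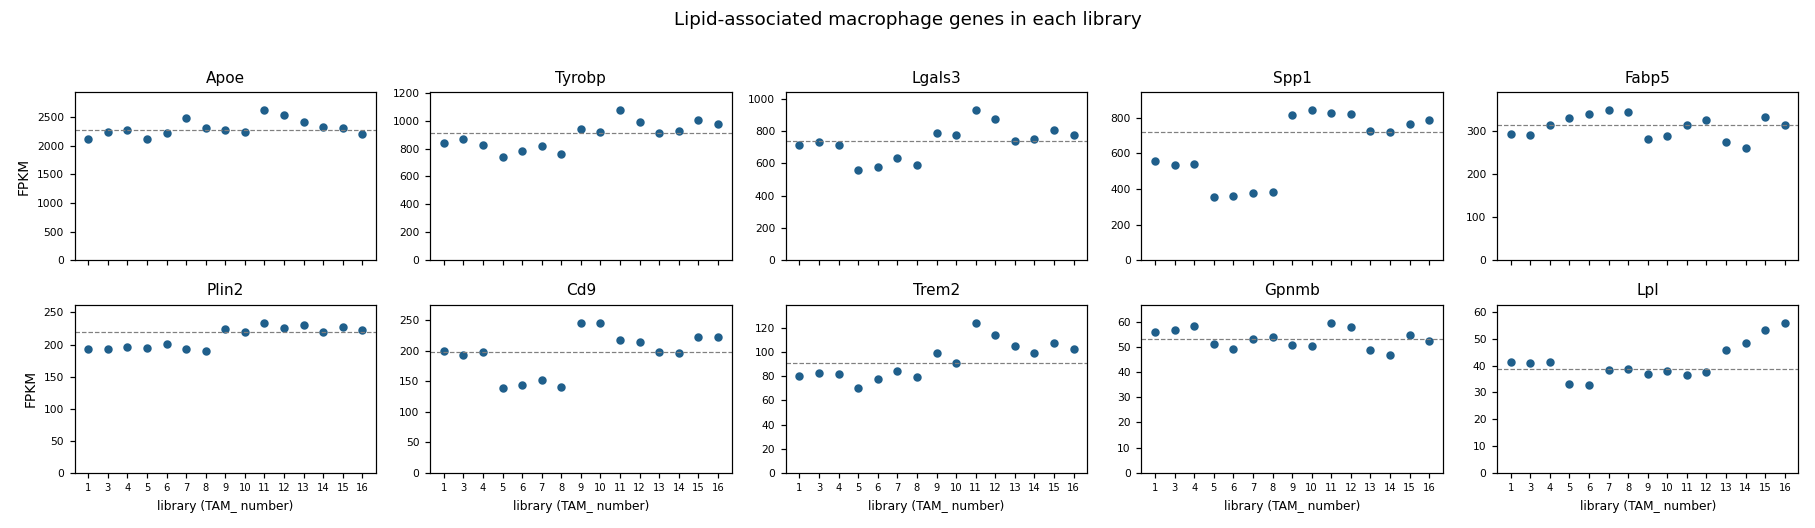
Expression of the 10 genes in FPKM (vertical axis, from 0) in each of the 15 libraries (horizontal axis), with 1 panel for each gene and 1 point for each library. Spp1 was lowest in TAM_5 to TAM_8, between 356 and 382 FPKM, while Apoe stayed between 2116 and 2625 FPKM.

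Trem2 (chr17:48346401-48354147, plus strand, protein coding) showed a step between 2 stretches of libraries. It had 80.1, 82.8 and 81.9 FPKM in TAM_1, TAM_3 and TAM_4, and 70.4, 77.9, 84.6 and 79.2 FPKM in TAM_5 to TAM_8. It had 99.0, 91.3, 125 and 114 FPKM in TAM_9 to TAM_12, and 105, 99.0, 108 and 102 FPKM in TAM_13 to TAM_16. The 7 lowest values were thus those of TAM_1 and TAM_3 to TAM_8, and the highest of them, 84.6 FPKM, lay under the lowest of the other 8 libraries, 91.3 FPKM. The highest library, TAM_11, stood 1.77-fold over the lowest, TAM_5.

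Tyrobp (chr7:30413760-30417585, plus strand), the adaptor of TREM2 and of several other immune receptors, had a higher level per length than its partner Trem2 in 15 of 15 libraries. It lay between 737 FPKM in TAM_5 and 1077 FPKM in TAM_11, with a median of 915 FPKM, a range of 1.46-fold. Its 7 lowest libraries were the same as those of Trem2.

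Spp1 (chr5:104435118-104441050, plus strand) encodes osteopontin, a secreted protein that binds integrins and CD44, and had the widest range of the 10. It had 555, 534 and 540 FPKM in TAM_1, TAM_3 and TAM_4, and 356, 362, 379 and 382 FPKM in TAM_5 to TAM_8. It had 817, 845, 830 and 824 FPKM in TAM_9 to TAM_12, and 724, 720, 767 and 788 FPKM in TAM_13 to TAM_16. No value of 1 of these 4 stretches fell within another. TAM_10, the highest, stood 2.37-fold over TAM_5, the lowest, and 2.61% of the 4628 genes with a median of 10 FPKM or more had a wider range.

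Lgals3 (chr14:47367751-47386160, plus strand), which encodes the lectin galectin-3, ran between 556 FPKM in TAM_5 and 931 FPKM in TAM_11 around a median of 740 FPKM. Cd9 (chr6:125460266-125494791, minus strand), a tetraspanin of the cell surface, ran between 139 FPKM in TAM_5 and 246 FPKM in TAM_9 around a median of 198 FPKM. Both were lowest in TAM_5 to TAM_8, where Lgals3 was at most 631 and Cd9 at most 151 FPKM. The highest libraries differed: Lgals3 peaked in TAM_11 and TAM_12, at 931 and 876 FPKM, and Cd9 in TAM_9 and TAM_10, at 246 and 245 FPKM.

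The genes of lipid handling followed several patterns. Apoe (chr7:19696109-19699188, minus strand) lay between 2116 FPKM in TAM_1 and 2625 FPKM in TAM_11, with a median of 2282 FPKM, a range of 1.24-fold. Plin2 (chr4:86648386-86670060, minus strand), which encodes a coat protein of lipid droplets, lay between 189 FPKM in TAM_8 and 234 FPKM in TAM_11, with a median of 219 FPKM. Its range was also 1.24-fold, yet its 7 lowest libraries were those of Trem2, at no more than 200.3 FPKM, and the other 8 were at 219 FPKM or more.

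In the deposited values, Lpl and Fabp5 did not follow Trem2. Lpl (chr8:68880491-68907448, plus strand) encodes lipoprotein lipase, which frees fatty acids from lipoproteins, and was highest in TAM_13 to TAM_16, at 45.8, 48.7, 53.4 and 56.1 FPKM. Every other library was at 41.3 FPKM or less, and the lowest was TAM_6 at 32.9 FPKM, around a median of 38.6 FPKM. Fabp5 (chr3:10012548-10016607, plus strand), a carrier of fatty acids in the cytoplasm, lay between 261 FPKM in TAM_14 and 349 FPKM in TAM_7 around a median of 314 FPKM. In TAM_5 to TAM_8, where Spp1, Cd9, Lgals3 and Tyrobp were lowest, Fabp5 was at 330, 339, 349 and 345 FPKM. As deposited, 3 of its 4 highest libraries were among these.

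Gpnmb (chr6:49036546-49070929, plus strand), a transmembrane glycoprotein of lysosomes and the cell surface, ranged least widely after Apoe and Plin2. It lay between 46.9 FPKM in TAM_14 and 59.7 FPKM in TAM_11, with a median of 53.1 FPKM, and the sets of libraries overlapped. The lowest read number behind any of these values was 3127 reads, for Trem2 in TAM_5, where counting alone gives a 95% error of 3.51% in either direction.

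**Figure D2:**
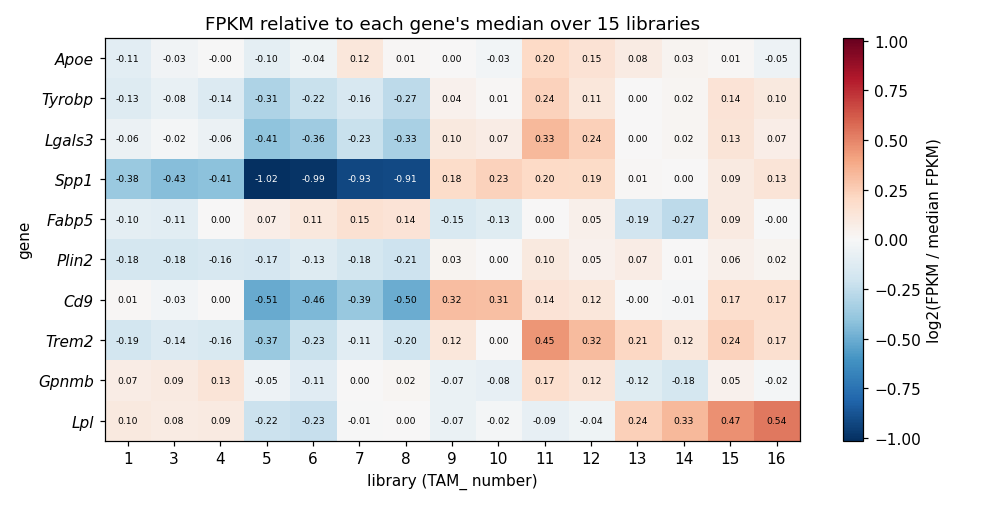
Difference of each library from the gene's median over the 15 libraries, as log2 of the ratio of FPKM values (colour), for the 10 genes (rows) and 15 libraries (columns). Spp1, Cd9, Lgals3 and Tyrobp were lowest in TAM_5 to TAM_8, Fabp5 was above its median there, and Lpl was highest in TAM_13 to TAM_16.

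Of the 10 genes, 5 (Spp1, Cd9, Trem2, Lpl and Lgals3) had a highest library at 1.5-fold or more of the lowest, against 23.5% of the 4628 genes with a median of 10 FPKM or more. The ranges of these 5 were 2.37-, 1.77-, 1.77-, 1.70- and 1.67-fold, against a median of 1.35-fold over the 4628 genes. The other 5 were Tyrobp at 1.46-, Fabp5 at 1.34-, Gpnmb at 1.27-, Apoe at 1.24- and Plin2 at 1.24-fold, so Tyrobp lay just under the threshold and Lgals3 was the nearest above it.

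These ranges depend on how the libraries are scaled. By the median ratio over genes, the deposited values were offset by between −0.15 (TAM_11) and 0.14 (TAM_5) on the log2 scale. Taking this offset out raised the values in TAM_11 and lowered those in TAM_5, so that genes low in TAM_5 and high in TAM_11 gained range. With this median-ratio scaling, 7 of the 10 genes passed 1.5-fold, against 29.6% of the 4628 genes, with Spp1 at 2.84-, Trem2 at 2.16- and Cd9 at 2.06-fold. Rescaled instead to 12 core macrophage genes, 5 of the 10 passed, against 26.3% of genes, with Spp1 at 2.50-, Cd9 at 1.92- and Trem2 at 1.70-fold. The direction of Fabp5 depended on this choice: its highest library was TAM_7 as deposited, TAM_6 with core macrophage scaling and TAM_12 with median-ratio scaling. Lpl kept TAM_13 to TAM_16 as its 4 highest libraries under all of these scalings, and Spp1 kept TAM_5 to TAM_8 as its 4 lowest.

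**Figure D3:**
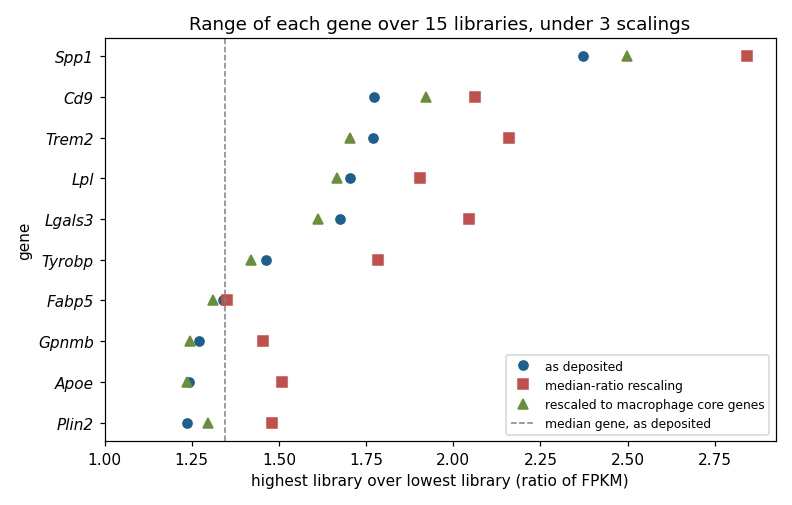
Highest library divided by lowest library for each of the 10 genes (fold), with the FPKM values as deposited, rescaled by median ratio, and rescaled to the core macrophage genes. Spp1 had the widest range under each scaling, at 2.37-, 2.84- and 2.50-fold.

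The genes were next compared by the order in which they put the libraries, and 84 of 105 pairs (80%) was used as the threshold. This is also the number of pairs that join libraries of different sets. Trem2 reached it with 4 of the other 9 genes, against 3.52% of 11033 genes: with Tyrobp (95 pairs), Lgals3 (94), Plin2 (89) and Spp1 (86). The 11033 genes are all tested genes other than the one compared, and were not matched to the 10 genes for level. Tyrobp reached it with 5 of 9, against 4.23% of genes, and its closest partner was Lgals3 with 100 pairs. Spp1 reached it with 4 of 9, against 5.11% of genes, Lgals3 with 4 of 9, against 5.01%, and Cd9 with 3 of 9, against 3.17%. Plin2 reached it with 2 of 9, against 1.52% of genes. As deposited, these 6 genes therefore held all 11 pairs at the threshold, of the 45 pairs among the 10 genes.

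As deposited, the other 4 genes reached the threshold with none of the 10. The shares of all genes at the threshold were also low for these 4: 0.109% for Gpnmb, 0.281% for Fabp5, 0.752% for Lpl and 0.19% for Apoe. In the deposited values, Fabp5 had the lowest median count with the rest of the 10, at 40 of 105 pairs. Its count was 36 with Spp1 and 41 with Trem2, but 64 with Gpnmb. Over all 11033 genes the median count was 33 with Spp1 and 34 with Trem2, so Fabp5 lay near the typical gene there. The median count of all genes with Fabp5 was 61. The counts of Fabp5 with Spp1 and Trem2 were 60 and 65 with median-ratio scaling, and 41 and 43 with core macrophage scaling. Lpl had 60 pairs in common with Trem2 and 65 with Spp1, and Apoe had 79 with Trem2, its highest among the 10. With median-ratio scaling, Apoe reached the threshold with Trem2 (94 pairs), Plin2 (93), Lgals3 (92), Spp1 (87), Tyrobp (87) and Cd9 (86). Lpl then reached it with Trem2 (85) and Tyrobp (86), while Gpnmb and Fabp5 did not reach it. With core macrophage scaling, none of these 4 genes reached it.

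**Figure D4:**
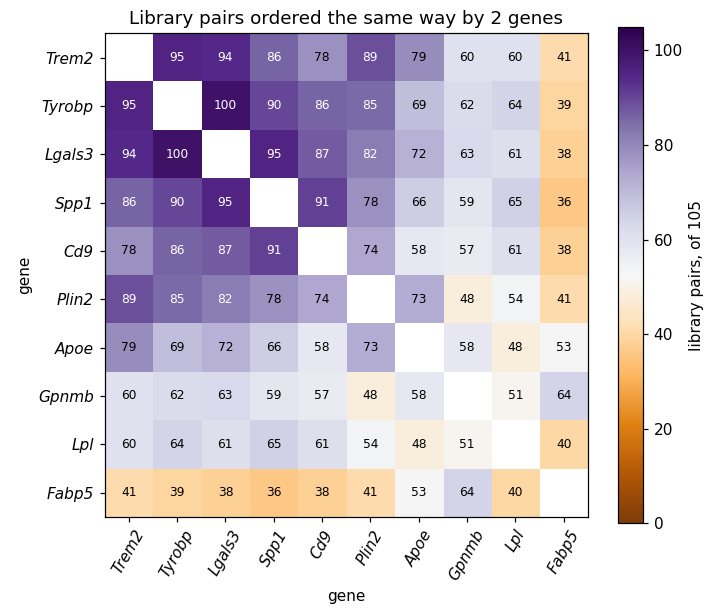
Number of library pairs, of 105, that each 2 of the 10 genes ordered the same way with the values as deposited (colour and printed number). The diagonal is left blank. Tyrobp and Lgals3 shared 100, and the counts of Fabp5 with the other genes ran between 36 and 64.

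As deposited, the median count with Trem2 was 79 for the other 9 genes and 34 for all 11033 genes, and 20.1% of genes were in the opposite order at the same threshold. Both the members' count and the background depended on the scaling: 7 of the other 9 genes reached the threshold with Trem2 under median-ratio scaling, against 12.4% of genes, and 2 of 9 under core macrophage scaling, against 2.10%. The 7 lowest libraries of Trem2 were also the 7 lowest for Tyrobp, Spp1, Lgals3 and Plin2, 4 of the other 9, against 2.95% of 11033 genes. With either rescaling Cd9 joined them. Of the 11 pairs at the threshold, 9 reached it under all of the scalings, while Trem2 with Spp1 and Trem2 with Plin2 dropped to 81 and 80 pairs with core macrophage scaling.

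The genes most like Trem2 in level over the 15 libraries were Fxyd5, Use1, Rpl31, Myl6, Rps14, Ctsb, Cyba, Coro1a, Cndp2 and Emp3, with 93 to 101 pairs in the same order. Rpl31, a protein of the large ribosomal subunit, had 101, and ran between 468 FPKM in TAM_5 and 689 FPKM in TAM_11. Ctsb, the lysosomal protease cathepsin B, had 98. The genes least like it were Rbbp6, Pnn, Sfpq, Brd1 and Nfe2l1, with 95 to 99 pairs in the opposite order. Sfpq, a splicing factor, ran the other way, with 36.9 FPKM in TAM_5 and 24.8 FPKM in TAM_11.

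Tyrobp shared genes with this list, being nearest to Rpl31, Fxyd5 and Capzb. Lgals3 was nearest to Aldoa, the glycolytic enzyme aldolase, with 102 pairs, and to Taldo1 and Arpc3. Spp1 was nearest to Cd24a, with 99 pairs, to the chemokine Ccl9 and to Emilin2, and Cd24a had the same width of range, 2.38-fold. Cd9 was nearest to Lcp1, to the neutrophil-attracting chemokine Cxcl3 and to Il23a, a subunit of the cytokine IL-23.

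Cxcl3 ran between 70.5 FPKM in TAM_7 and 424 FPKM in TAM_10, and Il23a between 92.9 FPKM in TAM_7 and 222 FPKM in TAM_10, both wider than Cd9. Apoe was nearest to H2-Ab1, a chain of MHC class II, with 94 pairs, to Cd74, the invariant chain, and to Grcc10. Lpl was nearest to Slc25a5, the mitochondrial ADP/ATP carrier, with 99 pairs, to Itgb2 and to Cd300ld. Plin2 was nearest to the peroxidase Prdx5, with 94 pairs, to Rps15a and to Tpt1, Gpnmb to Sdc3, Hebp1 and Pld3, and Fabp5 to Lpxn, Ifnb1 and Tnfrsf14. Likeness was ranked on log2 levels over the 15 libraries, which form separate sets, and describes these libraries only.

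Among 24 further genes of lipid-associated and disease-associated phagocytes, 6 were in the order of Trem2 at the threshold, against 3.52% of all genes, and 2 in the opposite order, against 20.1%. Those in the order of Trem2 included the lysosomal genes Ctsb, Ctsd and Cd68, the protease inhibitor Cstb and the chemokine Ccl6, which ran between 562 and 1254 FPKM. Cst7, an inhibitor of cysteine proteases, and Csf1, the macrophage growth factor, were the 2 in the opposite order, with 86 and 96 pairs. The median of the list was 64.5 pairs, against 34 over all 11033 genes. The counts of this list and of those that follow are given for the deposited values only.

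Of 10 genes of TREM2 signalling and shedding, 0 reached the threshold with Trem2 in either direction, against 3.52% of all genes in the same order and 20.1% in the opposite order. In a list of this size, 0 in the same order is near the background. The nearest were Lat2 at 82 pairs in the same order and Plcg2 at 82 in the opposite order. Syk, the kinase recruited by TYROBP, lay between 33.9 and 44.5 FPKM, and Adam17, a sheddase of TREM2, between 40.0 and 47.2 FPKM.

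Of 20 genes of lipid uptake, storage and efflux, 0 were in the order of Trem2 at the threshold and 1, the lipoprotein receptor Vldlr, was in the opposite order with 86 pairs, against 3.52% and 20.1% of all genes. The scavenger receptor Msr1 and the lipoprotein receptor Lrp1 came nearest to the order of Trem2, with 81 pairs each. Hilpda, an inhibitor of lipid-droplet lipolysis, was the highest of this list at a median of 269 FPKM, and the sterol exporter Abca1 had a median of 40.4 FPKM and 77 pairs. Of the 4 MiT/TFE factors, which drive lysosomal genes, 0 reached the threshold in either direction, too few genes to set against those shares, and Tfe3 had the highest level at a median of 19.6 FPKM.

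Of 8 binding partners of osteopontin and galectin-3, 0 were in the order of Trem2 at the threshold and 2 were opposite, the integrin chain Itgb3 with 91 pairs and the receptor Mertk with 88; both counts are near the shares of all genes, 3.52% and 20.1%. Cd44, a receptor of osteopontin, lay between 154 and 215 FPKM. Of 12 genes of glycolysis and the response to hypoxia, Ldha and Aldoa were in the order of Trem2 and Hk2 and Vegfa in the opposite order, against the same shares of all genes. The summed level of these 12 was ordered like Cd9 in 99 pairs, like Spp1 in 95, like Lgals3 in 93 and like Tyrobp in 92. Genes of high level weigh most in this sum. Eno1, Aldoa and Pgk1 had medians of 731, 643 and 528 FPKM, against 2799 FPKM for the sum. The median count of the 12 single genes with Trem2 was 65.5 pairs.

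Markers of other cells moved with some of the 10 genes. The summed level of 8 T and NK cell markers was 142 to 146 FPKM in TAM_5 to TAM_8, the libraries lowest in Spp1, and 29.5 to 59.3 FPKM in the others. Of the 6 of these that passed the filter, 4 were opposite to Trem2 at the threshold, against 20.1% of all genes, and Ncr1, which marks NK cells, was listed at 0 in at least 1 library. Of 12 hepatocyte markers, 5 were opposite to Trem2, against the same 20.1%. Their sum ran between 415 FPKM in TAM_9 and 624 FPKM in TAM_5. Trf had the highest median level of the 12, at 284 FPKM, and had 75 pairs in the order of Trem2. In TAM_5, most of the sum came from the other 11. Without Trf, the sum of the other 11 ran between 94.97 FPKM in TAM_10 and 433 FPKM in TAM_5, a range of 4.56-fold, and was ordered against Cd9 in 99 pairs and against Spp1 in 97. Alb, which encodes albumin, ran between 30.9 FPKM in TAM_10 and 224 FPKM in TAM_5. The part of either in the levels of Spp1, Cd9 or Trem2 was not tested.

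The 8 Kupffer cell markers, which mark the resident macrophages of the liver, summed to between 130 FPKM in TAM_8 and 284 FPKM in TAM_15, and their sum was ordered like Lpl in 84 pairs. The 12 core macrophage genes summed to between 11234 FPKM in TAM_5 and 14034 FPKM in TAM_11, in the order of Trem2 in 87 pairs. The sum is weighted to genes of high level: Lyz2 had a median of 5238 FPKM, against 12550 FPKM for the sum, and 57 pairs. The median of the 12 genes was 58 pairs. Cd14 alone reached the threshold with Trem2, against 3.52% of all genes, and Mertk alone in the opposite order, against 20.1%. The 8 monocyte markers summed to between 309 FPKM in TAM_4 and 416 FPKM in TAM_11, in the order of Plin2 in 85 pairs. The sum of 6 endothelial markers lay between 67.3 FPKM in TAM_9 and 206 FPKM in TAM_6. Their part in the levels of these genes was not tested.

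In the remaining lists, counts at the threshold with Trem2 are set against 3.52% of all genes in the same order and 20.1% in the opposite order, and rest on few genes each. In the same order there was 1 of 4 neutrophil genes that passed the filter, 1 of 5 of stellate cells and fibroblasts, and 1 of 5 of biliary epithelium, which also had 1 in the opposite order. Cycling genes had 0 in the same order and 2 of 5 opposite. B cell (1 gene that passed), dendritic cell (3), endothelial (6), Kupffer cell (8) and monocyte (8) lists had 0 in either direction.

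**Figure D5:**
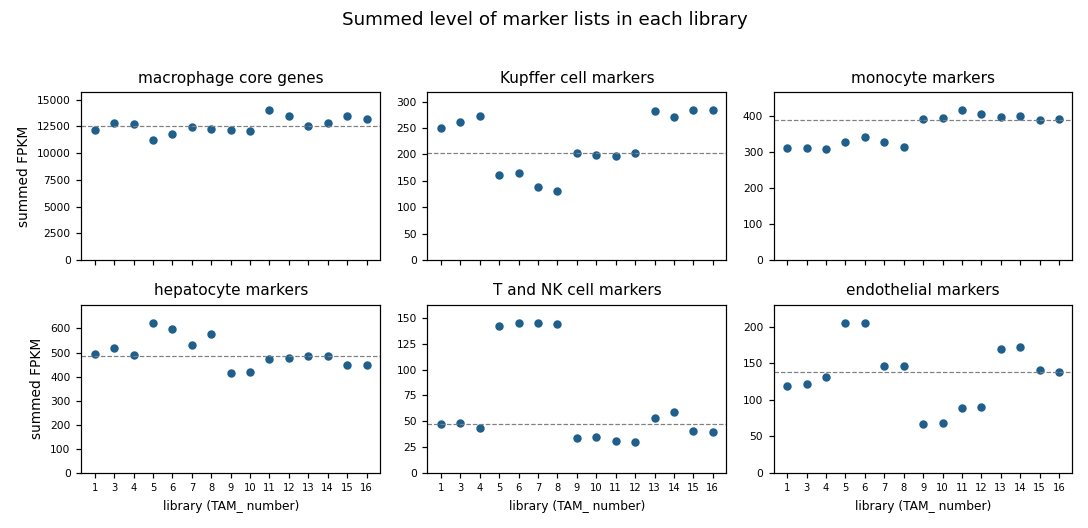
Summed FPKM of marker lists of macrophages, Kupffer cells, monocytes, hepatocytes, T and NK cells, and endothelial cells (vertical axes) in each of the 15 libraries (horizontal axis), 1 point for each library; the hepatocyte sum includes Trf. The T and NK cell sum was 142 to 146 FPKM in TAM_5 to TAM_8, and at most 59.3 FPKM in the other libraries.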

How the data were processed

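Per the labels' protocols, RNA was isolated with TRIzol and libraries were prepared with a VAHTS Universal V6 kit. Per the submitters' processing notes, the tools were fastp, HISAT and HTSeq, with the build mm10. Tool versions, the annotation and how strand was treated were not found there. The authors deposited 1 table of FPKM values for 26931 genes in 15 columns.

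The names of the columns match the prefix of all 16 sample titles and no single sample; the number 2 is skipped. All columns were therefore used as libraries of 1 group, macrophages from liver cancer, with no treatment, and 0 value columns were left unused. Nothing says that libraries came from separate mice.

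Whole reads were recovered from the steps of the FPKM values for 99.98% of genes above 0 in at least 2 libraries, within 0.02 reads. They served only for depth, for counting error and for comparing libraries with sampling noise. No 2 libraries were within sampling noise, since the chi-square per gene was 3.79 or more. The recovery was tested on simulated data. Intervals cover counting error only.

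Tests of relations by log2 regression, correlation and permutation had been planned, but were not made because the libraries stood in separate sets of at most 4. Pearson's r over the pooled libraries was used only to rank genes by likeness, and is not given as a result. Counts of library pairs, which also pool the libraries, were used in place of the planned tests. The threshold of 84 of 105 pairs and the 1.5-fold threshold were chosen after seeing the data. The 10 genes and the 19 lists were chosen with earlier results of these data known. Named genes were the 10 members; for each, the 3 other genes with the highest Pearson r on log2 values at a median of 10 FPKM or more (10 highest and 5 lowest for Trem2); and, from each list, those nearest to Trem2 and those of extreme level. Not every gene this rule names is printed, 1 list gene is not reported here, and some list genes were added as examples after their values were seen. Coordinates are from GENCODE M21 (GRCm38, the same assembly as mm10). Python 3.11.15, pandas 2.3.3, NumPy 2.4.6 and SciPy 1.17.1 were used.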

Additional observations from a re-analysis of the deposited data

How the results depend on the processing

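Scaling of the libraries moved the counts most. Genes in the order of Trem2 numbered 388 of 11033 as deposited, 1373 (12.4%) with median-ratio scaling and 232 (2.10%) with scaling to core macrophage genes. Of the other 9 members, 4 were in the order of Trem2 as deposited, 7 with median-ratio and 2 with core macrophage scaling. The 11 pairs of members at the threshold became 23 and 12 under these scalings. Leaving out each library in turn gave 300 to 471 genes, 3 to 5 members and 9 to 12 pairs. Without TAM_11 and TAM_12, the libraries farthest from the median of Trem2, there were 289 genes, 3 members and 9 pairs, and the median of Plin2 was 200.3 FPKM against 219. Without the filter on low values 400 genes were in the order of Trem2. Median levels moved by less than 1 SD in 150 of 150 cases with a library left out and in 10 of 10 under either scaling. With 1 of 15 libraries left out, a median moves at most to the midpoint with a neighbouring value. The 150 cases are therefore a weak check. The scaling to core macrophage genes and the hepatocyte sum without Trf were chosen after seeing the data. Another pseudocount, covariates and ranks were meant for the regressions and were not run. No paired analysis was possible because the columns carry no replicate numbers and no treatment groups could be compared. The lowest number of reads behind a member's value, 3127, leaves a counting error well under the ranges described. Nothing here bears on the effect of the antibodies.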

Other observations

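The nearest library in the profile of all tested genes other than the 10 was in each case of the same set. The sets were built from these same distances, so this is no separate evidence for them. By these distances, 7 pairs were each other's nearest: TAM_3 with TAM_4, TAM_5 with TAM_6, TAM_7 with TAM_8, TAM_9 with TAM_10, TAM_11 with TAM_12, TAM_13 with TAM_14, and TAM_15 with TAM_16. Their root mean square log2 differences were 0.129 to 0.139. The cause of the differences between the 4 sets was not tested, and the column names do not tie the sets to treatments. Most of the sum of 6 dendritic cell markers was Ccr7, a chemokine receptor, which ran between 58.2 FPKM in TAM_14 and 112 FPKM in TAM_11, while the dendritic cell genes Zbtb46 and Clec9a were highest in TAM_5, at 1.61 and 2.62 FPKM. The neutrophil sum was lowest in TAM_3, at 87.8 FPKM, and highest in TAM_13, at 210 FPKM. Ifnb1, which encodes interferon beta, was listed between 46.1 FPKM in TAM_1 and 62.1 FPKM in TAM_7.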
